A study of Mus musculus with 12 samples.

Results

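The genes described here are the cytochrome P450 genes of families 1, 2 and 3 in mouse liver. They were taken from 12 deposited tables of log2 expression values as the protein-coding genes whose GRCm38 symbol is Cyp1, Cyp2 or Cyp3 followed by 1 subfamily letter and a number and nothing more, without Cyp2r1, and which had a value of log2(10), 3.32, or more in 3 or more of the 12 libraries. Of 57 genes with such symbols, 41 met the level, among 12637 genes of any kind that did. All 41 reached it in all 12 libraries, so the filter did not depend on any 1 group. They fell into 12 subfamilies: 13 Cyp2c, 6 Cyp3a, 5 Cyp2d, 4 Cyp2a, 3 Cyp2b, 3 Cyp2j, 2 Cyp1a genes, and 1 each of Cyp1b, Cyp2e, Cyp2f, Cyp2g and Cyp2u. Another 9 genes stayed below the level (Cyp2b23, Cyp2c65, Cyp2d11, Cyp2d12, Cyp2d34, Cyp2j8, Cyp2j13, Cyp2s1 and Cyp3a57), and 7 were listed at 0 in all libraries (Cyp2b19, Cyp2c66, Cyp2j7, Cyp2j11, Cyp2j12, Cyp2t4 and Cyp2w1). Just inside the level was Cyp1a1, with values of 3.49 to 3.96, and just outside it Cyp2s1, with 2.67 to 3.19.

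Cytochrome P450 enzymes carry a heme group with which they insert an oxygen atom from molecular oxygen into a substrate, and those of families 1 to 3 sit mostly in the endoplasmic reticulum and take their electrons from NADPH-cytochrome P450 reductase (Por) and cytochrome b5. In liver they oxidise drugs, plant compounds, steroids, bile acids and polyunsaturated fatty acids. Many are induced through ligand-activated transcription factors: the aryl hydrocarbon receptor (Ahr) for Cyp1 genes, and the constitutive androstane receptor (Nr1i3) and the pregnane X receptor (Nr1i2) for Cyp2b, several Cyp2c and Cyp3a genes. Several mouse members are made mainly by one sex, under the pattern of growth hormone release, and several are made mainly by hepatocytes near the central vein.

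RNA sequencing covered whole livers from female mice of the inbred strain C57BL/6, in 4 groups of 3 libraries. In the HFHS group mice spent 14 weeks on a diet rich in fat and sugar, a feeding model of steatohepatitis, without treatment. The curcumin and calcitriol groups ate the same diet and received intravenous liposomes loaded with curcumin, a plant polyphenol, or with calcitriol, the active hormone of vitamin D, in weeks 12 and 13, with profiling 2 weeks after the initial injection. The CNT group has no treatment and the same 14-week diet entry in the labels as the others, and the sources used here do not give the difference between CNT and HFHS. Empty-liposome groups were not analysed here, so drug and carrier cannot be told apart. Whether replicates came from different animals is not given in the titles, and the p-values then reflect only how much these samples vary, which may be technical. In bulk tissue, fewer cells of a type and less RNA per cell cannot be told apart.

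All values are log2 levels made by the authors, and no counts came with them, so depth is unknown. Their pattern at low levels is that of a shrunken (regularized) log2 scale, on which differences of weakly expressed genes may be understated. Library names below give the group and the number in the title, and lists of 3 values follow that number. A member was called where limma, fitted over all 12637 genes and 12 libraries, gave a Benjamini-Hochberg adjusted p under 0.05. The HFHS libraries were the least alike for these genes: the median SD of a member within a group was 0.339 in HFHS, 0.25 with calcitriol, 0.17 in CNT and 0.134 with curcumin. HFHS replicate 1 was the lowest of 12 libraries for 20 of the 41 members, HFHS replicate 3 and calcitriol replicate 3 for 8 each, and HFHS replicate 2 for 1. On the first principal component over all tested genes HFHS replicates 1 and 3 stood apart, at -32.8 and -28.4 against 0.396 to 14.4 for the other 10 libraries. Of 10 hepatocyte marker genes listed to check the labelled tissue, 9 had values (Tf was not analysed here) and none was at 0, and their summed log2 level was 20.36 to 21.16 in the 12 libraries.

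Levels spanned a wide range when set per length. As log2 value per kilobase of exon, averaged over 12 libraries, Cyp2e1, which oxidises ethanol and other small molecules, was highest at 15.96, followed by Cyp2d26 at 13.18, Cyp2a4 and Cyp2f2 at 12.44 each, Cyp2a5 at 12.35 and Cyp3a11 at 12.33. From Cyp2a4 down to Cyp3a11 the ranges over the 12 libraries overlapped, so their order is not resolved, whereas the range of Cyp2e1 lay above those of all other members. At the low end were Cyp2u1 at 2.46, Cyp1a1 at 2.24 and Cyp1b1 at 1.92, an extrahepatic form that metabolises estrogens and polycyclic hydrocarbons. All 7 listed female-predominant forms met the level in these female livers: Cyp2a4, Cyp2b9, Cyp2b13, Cyp2c40, Cyp2c69, Cyp3a16 and Cyp3a44. So did all 3 listed male-predominant forms, Cyp2d9 and Cyp2f2 among them, so meeting the level does not set the 2 lists apart.

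**Figure D1:**
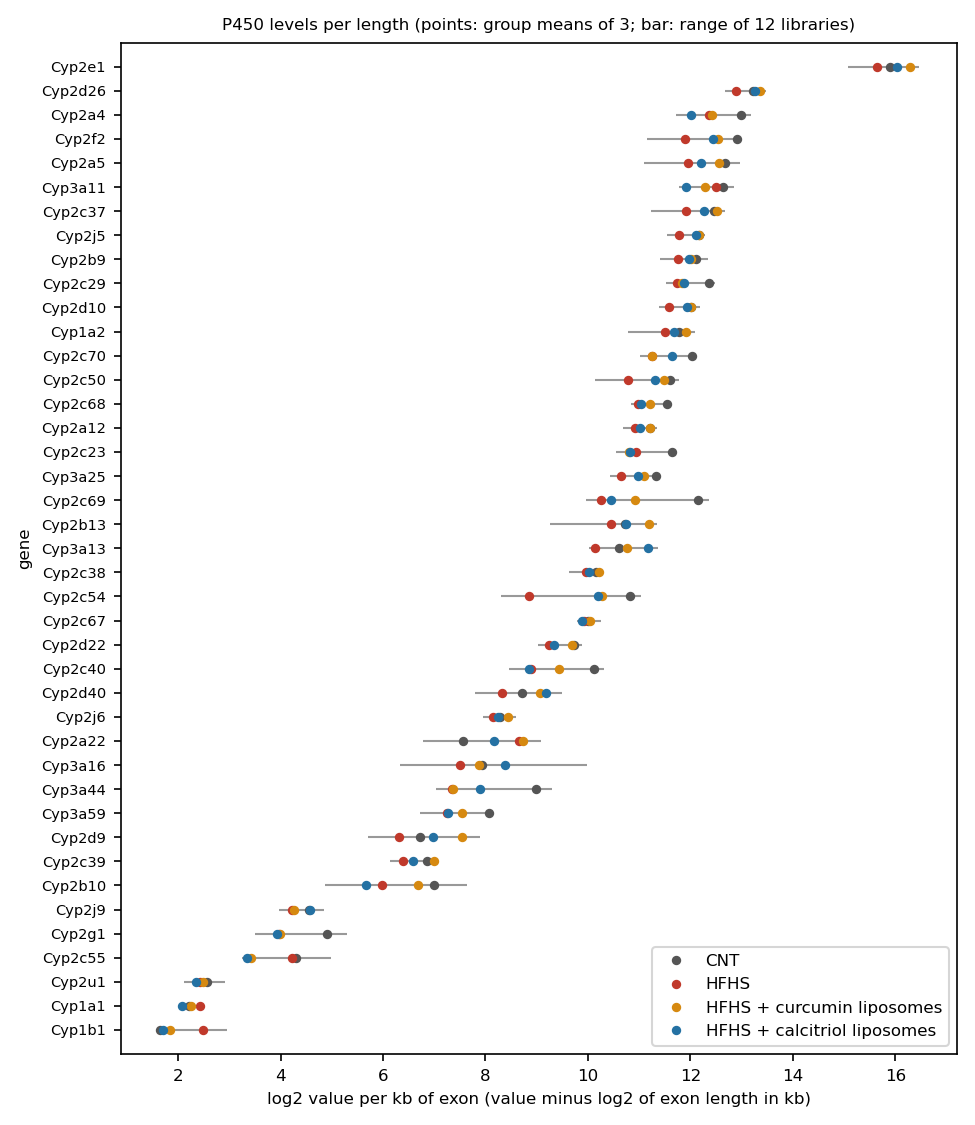
Level of each of the 41 P450 genes per length, on the x axis as the log2 value minus log2 of the exon length in kilobases. Points are group means of 3 libraries and grey bars the range over 12 libraries. Cyp2e1 stands alone at the top, and Cyp1b1, Cyp1a1 and Cyp2u1 are lowest.

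HFHS livers had lower levels of many P450 genes than CNT livers. Of the 41 members, 14 fell and 1, Cyp1b1, rose, and 38 had a log2 change below 0, with a median of -0.44. Among all 12637 genes 5.36% fell and 6.55% rose, 11.9% in either direction, 52.1% had a change below 0, and the median was -0.01. The 14 that fell were Cyp2c23, Cyp2c29, Cyp2c40, Cyp2c54, Cyp2c68, Cyp2c69, Cyp2c70, Cyp2a4, Cyp2d10, Cyp2d22, Cyp2f2, Cyp2g1, Cyp3a25 and Cyp3a44. By subfamily, 7 of 13 Cyp2c, 2 of 6 Cyp3a, 2 of 5 Cyp2d, 1 of 4 Cyp2a and the single Cyp2f and Cyp2g genes fell, and none of the 3 Cyp2b, 3 Cyp2j, 2 Cyp1a, Cyp2e or Cyp2u genes passed the test. All 3 HFHS libraries lay below all 3 CNT libraries for 17 members, against 14.1% of all genes, and above them for 2, against 12.7%. At an unadjusted p under 0.05 there were 24 members, against 31.9% of all genes. After quantile normalization 10 members were called (8.85% of all genes), and 11 with no filter on low values (5.18%). Members called were more under some omissions and fewer under others: 4, 24 and 5 when HFHS replicates 1, 2 and 3 were left out in turn, in fits that called 1.71%, 29.4% and 2.13% of all genes. They were 6, 2 and 12 for CNT replicates 1, 2 and 3, with 4.26%, 1.07% and 10.8% of all genes. With HFHS replicates 1 and 3 left out together, the lone HFHS library being taken to vary like the other groups, 1 member was called, Cyp2c70, with 0.538% of all genes, and the median change was -0.22. No member was called when only these 2 groups entered the limma fit, with 0.103% of all genes, where 21 members had an unadjusted p under 0.05.

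Several cell type marker lists moved in the same comparison. Of 10 stellate cell markers 4 rose in HFHS (Col3a1, Dcn, Lrat and Des), with a summed log2 level of 12.74 to 13.8 in HFHS and 12.45 to 12.72 in CNT, the 2 highest values being 13.8 in HFHS replicate 1 and 13.66 in replicate 3. Of 10 macrophage markers 4 rose (Cd68, Trem2, Gpnmb and Mmp12), with summed levels of 12.71 to 13.25 in HFHS and 12.48 to 12.8 in CNT. The summed level of the hepatocyte markers was 20.66 to 20.94 in HFHS and 20.91 to 21.13 in CNT. Of the other lists, the summed adipocyte level was 10.24 in HFHS replicate 3 and 6.66 to 7.41 in the other 11 libraries, and the cholangiocyte level was 11.78 and 10.77 in HFHS replicates 1 and 3 and 9.49 to 10.54 elsewhere, with 0 of 2 and 0 of 5 tested genes called by limma. None of these markers was at 0 in any library. Their part in the P450 values was not tested.

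By sex pattern, 4 of 7 listed female-predominant members fell in HFHS (Cyp2a4, Cyp2c40, Cyp2c69 and Cyp3a44; median log2 change -0.63) and 1 of 3 male-predominant ones, Cyp2f2. Of 7 members that respond to CAR or PXR 2 fell, Cyp2c29 and Cyp2c54. Beside these small counts, 14 of all 41 members and 5.36% of all genes fell. Cyp2c40 and Cyp2c69 may share reads and are not separate counts. Whether the lists differ from the other members was not tested. For 12 members, all 9 libraries of the 3 HFHS-titled groups lay below the lowest CNT library, which held for 4.3% of all genes: Cyp2a4, Cyp2c23, Cyp2c29, Cyp2c40, Cyp2c68, Cyp2c69, Cyp2c70, Cyp2f2, Cyp2g1, Cyp3a25, Cyp3a44 and Cyp3a59. For 0 members did all 9 lie above, against 3.51% of all genes. The comparisons of the 3 groups with CNT share the CNT libraries.

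**Figure D2:**
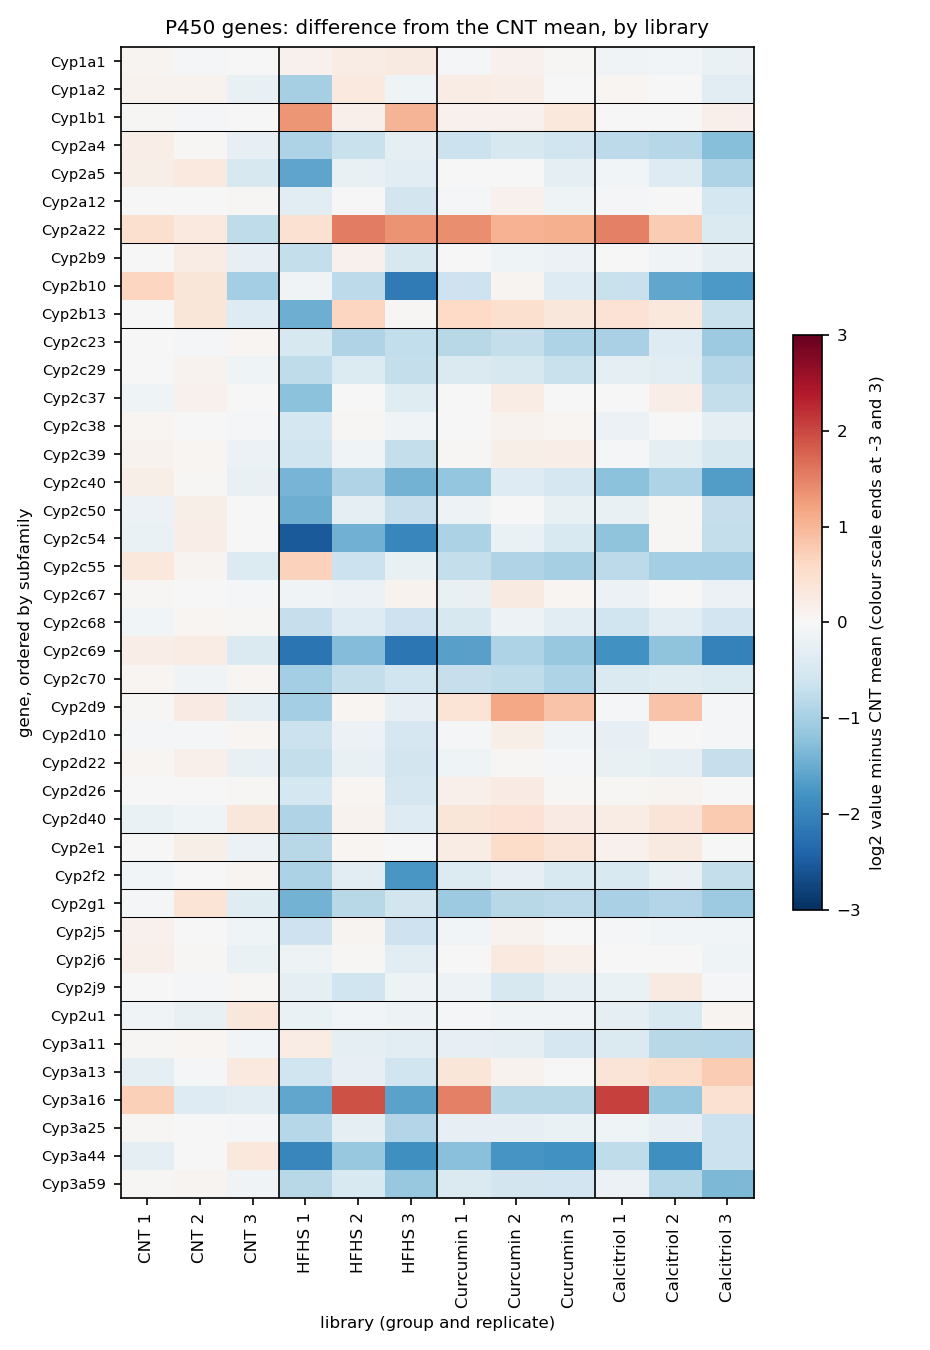
Difference of each library from the CNT mean (log2, colour scale from -3 to 3) for the 41 P450 genes in rows, ordered by subfamily, and the 12 libraries in columns, ordered by group. The deepest blue cells of Cyp2c54 and Cyp2c69 are in HFHS replicate 1, Cyp2c69 and Cyp3a44 are blue in all 9 HFHS-titled libraries, and Cyp3a16 changes between libraries of the same group.

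The Cyp2c genes, which hydroxylate steroids and drugs and form epoxides of arachidonic acid, lie on chromosome 19, 12 of them in 1 cluster between Cyp2c55 and Cyp2c70 and Cyp2c23 apart from it. A run of 4 genes on the minus strand of this cluster, Cyp2c67, Cyp2c68, Cyp2c40 and Cyp2c69, is so alike that 52.8%, 43.3%, 60.3% and 54.3% of their 50-base stretches also occur in another annotated gene. Reads from them could be shared, and their single values are uncertain. The alikeness extends in front of the genes. The stretches below, from RefSeq promoter windows of GRCm38.p6, run 5′ to 3′ on the minus strand and are shown because these genes changed by unlike amounts while the upstream letters of the first 4 differ by few bases. Cyp2c70 is added because it carries the same marked letters in an otherwise different stretch. Capitals mark the 9 letters CAAAGTCCA, which match the element bound by the liver factor HNF4A.
Cyp2c69: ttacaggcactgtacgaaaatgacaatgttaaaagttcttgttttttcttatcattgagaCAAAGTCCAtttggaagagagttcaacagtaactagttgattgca
Cyp2c40: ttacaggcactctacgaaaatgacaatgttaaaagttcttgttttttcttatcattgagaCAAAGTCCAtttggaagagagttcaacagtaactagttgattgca
Cyp2c68: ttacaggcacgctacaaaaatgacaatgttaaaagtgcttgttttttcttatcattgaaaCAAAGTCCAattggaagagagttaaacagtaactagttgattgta
Cyp2c67: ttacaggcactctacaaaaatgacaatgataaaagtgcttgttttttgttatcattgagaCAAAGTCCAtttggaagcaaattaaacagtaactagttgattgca
Cyp2c70: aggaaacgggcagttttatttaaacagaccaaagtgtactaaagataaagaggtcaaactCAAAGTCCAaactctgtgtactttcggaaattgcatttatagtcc
They lie at chr19:39886800-39886904, chr19:39812815-39812919, chr19:39741134-39741238, chr19:39649123-39649227 and chr19:40187306-40187410, each upstream of its RefSeq start. The Cyp2c70 stretch overlaps the first bases of the longer GENCODE gene model, whose coordinates are given with its values. The Cyp2c40 and Cyp2c69 stretches were identical at 104 of 105 bases, Cyp2c40 and Cyp2c68 at 98, and Cyp2c40 and Cyp2c67 at 97. Cyp2c70, at the end of the cluster, shared no 50-base stretch with another gene.

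Cyp2c69 (chr19:39842814-39886799, minus strand), a female-predominant form, had values of 13.12, 13.14 and 12.49 in CNT, 10.73, 11.61 and 10.75 in HFHS, 11.29, 12.00 and 11.78 with curcumin and 11.10, 11.70 and 10.89 with calcitriol. All 9 HFHS-titled libraries lay below the CNT libraries. Its log2 change from CNT to HFHS was -1.89 (SE 0.29, adjusted p = 0.00932), a 3.70-fold lower level, and it remained called without any 1 of the 6 libraries. Cyp2c40 (chr19:39767071-39812814, minus strand), its closest relative, had values of 11.34, 11.19 and 10.93 in CNT, 9.75, 10.26 and 9.73 in HFHS, 9.99, 10.76 and 10.64 with curcumin and 9.93, 10.23 and 9.48 with calcitriol. Here too the 9 libraries lay below CNT, with a change in HFHS of -1.24 (SE 0.24, adjusted p = 0.0157), not called without HFHS replicate 1 or 3 or CNT replicate 2, adjusted p of 0.0563 to 0.0605. Cyp2c68 also fell, with -0.56 (SE 0.12, adjusted p = 0.0167), not called without HFHS replicate 1 or 3 or CNT replicate 2, adjusted p of 0.059 to 0.0677. Cyp2c67, with values of 10.58 to 11.05 in the 12 libraries, had -0.07 (SE 0.11, adjusted p = 0.722). Summed on the linear scale, which depends less on how reads were split among them, the 4 genes changed by -1.04 in HFHS (SE 0.17, adjusted p = 0.00999). With shrunken values the sum is approximate, and any reads left out for matching several genes would not be restored by it. The sum was 13.84 to 14.17 in CNT and 12.85 to 13.26 in HFHS, with no overlap. Against CNT the sum changed by -0.68 with curcumin (SE 0.17, adjusted p = 0.0513) and by -0.98 with calcitriol (SE 0.17, adjusted p = 0.0143).

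Cyp2c70 (chr19:40153353-40187333, minus strand), which makes muricholic acids, the hydrophilic bile acids of mice, had values of 13.08, 12.91 and 13.08 in CNT, 12.00, 12.30 and 12.42 in HFHS, 12.34, 12.27 and 12.10 with curcumin and 12.59, 12.65 and 12.62 with calcitriol. HFHS and curcumin libraries shared a low range, CNT was highest, and the 3 calcitriol libraries lay in between, above all HFHS and curcumin libraries and below CNT. The change in HFHS was -0.78 (SE 0.12, adjusted p = 0.00695), called without any 1 of the 6 libraries and also with HFHS replicates 1 and 3 left out (-0.72, SE 0.12, adjusted p = 0.0268). Against CNT it was -0.79 (SE 0.12, adjusted p = 0.00516) with curcumin, called in all 14 alternatives run, and -0.40 (SE 0.12, adjusted p = 0.0705) with calcitriol. The direct difference between curcumin and calcitriol, -0.39 (SE 0.12), had an adjusted p of 0.227.

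Cyp2c54 (chr19:40037940-40073827, minus strand), a relative of the epoxygenases Cyp2c37 and Cyp2c50, had values of 11.47, 11.87 and 11.64 in CNT, 9.14, 10.22 and 9.70 in HFHS, 10.70, 11.45 and 11.19 with curcumin and 10.45, 11.70 and 10.94 with calcitriol. The 3 HFHS libraries were the lowest of the 12, the curcumin libraries lay between HFHS and CNT without overlapping either, and calcitriol overlapped CNT. The HFHS change was -1.97 (SE 0.33, adjusted p = 0.0118), 3.92-fold lower, the largest fall among the members, not called without CNT replicate 2, adjusted p = 0.052. Since 25.7% of its 50-base stretches occur in Cyp2c37 or Cyp2c50, the sum of the 3 was also tested, and its change of -0.79 (SE 0.27, adjusted p = 0.0748) did not pass. Cyp2c37 and Cyp2c50 themselves had -0.53 (SE 0.28, adjusted p = 0.222) and -0.81 (SE 0.26, adjusted p = 0.0613).

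Cyp2c23 (chr19:44005022-44029208, minus strand), an arachidonic acid epoxygenase that shared no 50-base stretch with another gene, had values of 12.73, 12.69 and 12.81 in CNT, 12.27, 11.83 and 12.01 in HFHS, 11.90, 12.03 and 11.80 with curcumin and 11.76, 12.36 and 11.65 with calcitriol. All 9 HFHS-titled libraries lay below CNT, and none of the 3 groups among them stood apart. The change in HFHS was -0.70 (SE 0.17, adjusted p = 0.0247), not called without HFHS replicate 3 or CNT replicate 1 or 2, adjusted p of 0.061 to 0.081. Cyp2c29, an abundant form that responds to CAR activators, had values of 14.00, 14.10 and 13.86 in CNT, 13.22, 13.59 and 13.27 in HFHS, 13.55, 13.51 and 13.31 with curcumin and 13.70, 13.66 and 13.13 with calcitriol. It was lower than CNT in all 9 libraries, by -0.62 (SE 0.16, adjusted p = 0.0308) in HFHS, not called without HFHS replicate 1 or 3 or CNT replicate 1 or 2, adjusted p of 0.0736 to 0.107. The remaining Cyp2c genes, Cyp2c38, Cyp2c39 and Cyp2c55, did not pass in HFHS and had changes of -0.47 to -0.06.

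**Figure D3:**
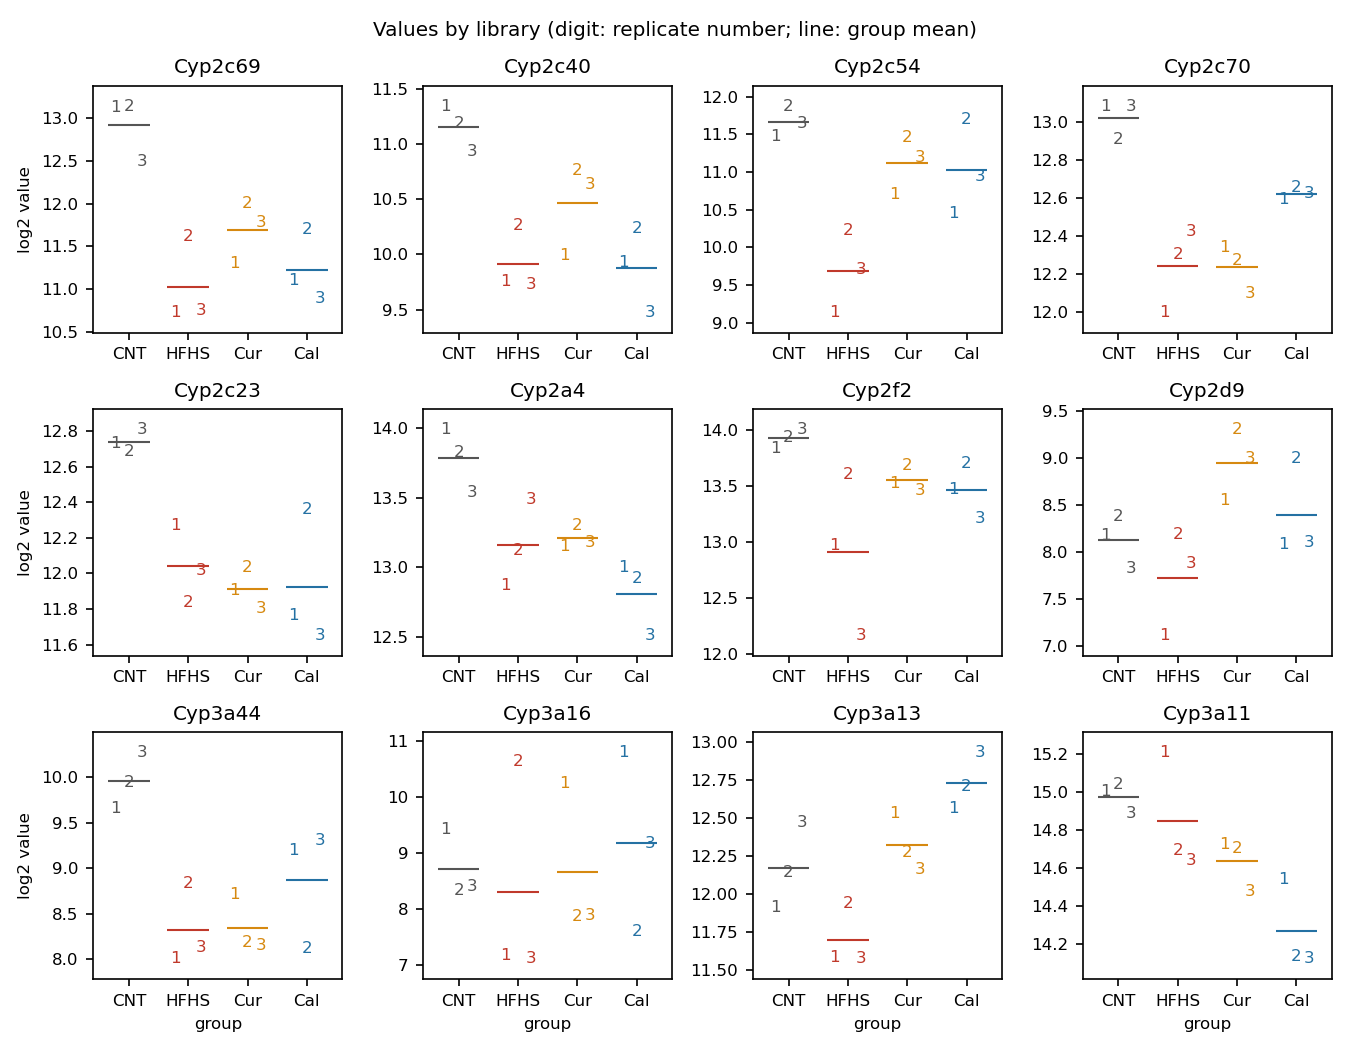
Log2 values of 12 P450 genes in each library, grouped on the x axis as CNT, HFHS, curcumin (Cur) and calcitriol (Cal). Digits are the replicate numbers and lines the group means, and each panel has its own y axis. CNT lies above all other libraries for Cyp2c69, Cyp2c40, Cyp2c70, Cyp2c23, Cyp2a4, Cyp2f2 and Cyp3a44, and the 3 highest libraries for Cyp3a13 are those with calcitriol.

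The Cyp3a genes, whose products hydroxylate steroids, bile acids and a large share of drugs, lie on chromosome 5. Cyp3a44 (chr5:145773983-145805874, minus strand), a female-predominant form, had values of 9.66, 9.95 and 10.27 in CNT, 8.01, 8.83 and 8.13 in HFHS, 8.71, 8.18 and 8.15 with curcumin and 9.19, 8.12 and 9.31 with calcitriol. All 9 HFHS-titled libraries were below CNT, and the change in HFHS was -1.64 (SE 0.32, adjusted p = 0.018), not called without HFHS replicate 1 or 3 or CNT replicate 2, adjusted p of 0.0617 to 0.0801. Of its 50-base stretches 26.5% occur in other Cyp3a genes, most of all in Cyp3a41a, so its value is uncertain. Cyp3a16, chosen for its values after they were seen, had values of 9.42, 8.33 and 8.39 in CNT, 7.16, 10.62 and 7.12 in HFHS, 10.23, 7.87 and 7.89 with curcumin and 10.78, 7.59 and 9.17 with calcitriol. Within HFHS it was 10.62 in replicate 2 and below 7.2 in the others, and the curcumin and calcitriol libraries each held a similarly high replicate 1, and no difference between groups passed (all adjusted p at least 0.709). The neighbouring Cyp3a41b, which is not among the 41 genes, followed the same libraries, with 5.11 in HFHS replicate 2 and 3.45 and 3.38 in replicates 1 and 3. Cyp3a41a, also not among them, did so only in part. It had 5.96 in HFHS replicate 2 and 4.71 and 4.57 in replicates 1 and 3, but was highest in CNT replicate 1, at 6.01. Of the 50-base stretches of Cyp3a16 10.7% occur in other Cyp3a genes, these 2 among them, so reads could be shared. The upstream stretches of Cyp3a16 and Cyp3a44 are shown because the 2 genes behaved unlike each other although 102 of 105 bases were identical.
Cyp3a16: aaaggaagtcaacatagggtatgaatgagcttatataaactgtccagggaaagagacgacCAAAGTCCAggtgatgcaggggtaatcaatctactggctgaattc
Cyp3a44: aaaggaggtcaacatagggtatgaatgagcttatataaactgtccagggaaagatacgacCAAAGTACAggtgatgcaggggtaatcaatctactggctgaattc
They lie at chr5:145469778-145469882 and chr5:145805925-145806029 on the minus strand of GRCm38.p6 (RefSeq), and capitals mark the same 9 positions as above. Counted from 1 at the 5′ end of these 9 letters, Cyp3a44 carries the substitution C7A relative to Cyp3a16.

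Cyp3a25, a form found in adult liver and gut, had values of 12.42, 12.37 and 12.34 in CNT, 11.53, 12.09 and 11.49 in HFHS, 12.14, 12.14 and 12.17 with curcumin and 12.24, 12.13 and 11.72 with calcitriol. CNT libraries lay above the other 9, and HFHS replicates 1 and 3 were lowest. The change in HFHS was -0.68 (SE 0.16, adjusted p = 0.0241), not called without HFHS replicate 1 or 3 or CNT replicate 1 or 2, adjusted p of 0.0641 to 0.0935, and its sum with the similar Cyp3a59 also fell (-0.69, SE 0.16, adjusted p = 0.0246). Cyp3a59 alone had -0.81 (SE 0.24, adjusted p = 0.0515). Cyp3a11 (chr5:145854426-145879964, minus strand), the main drug-metabolising Cyp3a of mouse liver and a classic target of the pregnane X receptor, had values of 15.00, 15.04 and 14.89 in CNT, 15.21, 14.69 and 14.64 in HFHS, 14.73, 14.70 and 14.48 with curcumin and 14.54, 14.14 and 14.12 with calcitriol. Its highest value was that of HFHS replicate 1, the library that was lowest for many other members, and its lowest were calcitriol replicates 2 and 3. The HFHS change was -0.13 (SE 0.17, adjusted p = 0.617).

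On chromosome 7 lie the Cyp2a, Cyp2b, Cyp2f and Cyp2g genes. Cyp2a4, a female-predominant steroid 15-alpha-hydroxylase, had values of 13.99, 13.83 and 13.54 in CNT, 12.87, 13.12 and 13.49 in HFHS, 13.15, 13.30 and 13.18 with curcumin and 13.00, 12.92 and 12.51 with calcitriol. All 9 HFHS-titled libraries were below CNT, and its change in HFHS was -0.63 (SE 0.17, adjusted p = 0.0402), not called without HFHS replicate 1 or CNT replicate 1 or 2, adjusted p of 0.114 to 0.15. Cyp2a5, a coumarin hydroxylase with which Cyp2a4 shares 36.1% of its 50-base stretches, had values of 13.90, 14.02 and 13.24 in CNT, 12.15, 13.50 and 13.39 in HFHS, 13.71, 13.70 and 13.44 with curcumin and 13.65, 13.32 and 12.78 with calcitriol. Its groups overlapped, HFHS replicate 1 was lowest, and the change was -0.71 (SE 0.34, adjusted p = 0.18). The sum of both genes did not pass (-0.65, SE 0.24, adjusted p = 0.094), so the call of Cyp2a4 was not shared by the pair. Cyp2a12 and Cyp2a22 had -0.29 (SE 0.16, adjusted p = 0.221) and 1.11 (SE 0.49, adjusted p = 0.152).

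Cyp2f2 (chr7:27119909-27133660, plus strand), which activates naphthalene and in liver is made mainly by periportal hepatocytes, had values of 13.83, 13.93 and 14.00 in CNT, 12.96, 13.60 and 12.16 in HFHS, 13.52, 13.68 and 13.46 with curcumin and 13.47, 13.70 and 13.20 with calcitriol. CNT lay above all other libraries and HFHS replicate 3 was lowest. The change in HFHS was -1.01 (SE 0.27, adjusted p = 0.0378), not called without HFHS replicate 1 or 3 or CNT replicate 1, 2 or 3, adjusted p of 0.0741 to 0.106, and it was -0.32 (SE 0.17, adjusted p = 0.531) with HFHS replicate 2 as the only HFHS library. Of 10 periportal marker genes 6 fell in the same comparison, with a summed log2 level of 16.55 in HFHS replicate 3, 17.09 and 17.33 in replicates 1 and 2, and 17.46 to 17.75 in CNT. Of 10 pericentral markers 2 fell, Rgn and Tbx3, and neither list had a gene at 0. Their part in the Cyp2f2 value was not tested. Cyp2g1, known best from olfactory tissue, was low, with values of 5.97, 6.41 and 5.65 in CNT, 4.60, 5.17 and 5.47 in HFHS, 4.91, 5.18 and 5.22 with curcumin and 5.03, 5.12 and 4.93 with calcitriol. It was below CNT in all 9 libraries, with a change in HFHS of -0.93 (SE 0.22, adjusted p = 0.0245), not called without HFHS replicate 1 or CNT replicate 1 or 2, adjusted p of 0.0596 to 0.0886.

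Cyp2b10, the classic target of the constitutive androstane receptor, had values of 8.71, 8.44 and 7.06 in CNT, 7.97, 7.29 and 5.94 in HFHS, 7.45, 8.14 and 7.68 with curcumin and 7.41, 6.50 and 6.35 with calcitriol. It varied within each group and no comparison passed, with -1.004 (SE 0.56, adjusted p = 0.249) in HFHS. The female-predominant Cyp2b9 and Cyp2b13 had -0.35 (SE 0.19, adjusted p = 0.217) and -0.26 (SE 0.47, adjusted p = 0.73). None of the 3 Cyp2b genes passed in any of the 6 comparisons by limma, and at an unadjusted p under 0.05 there was 1, for calcitriol against CNT.

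The Cyp2d genes, on chromosome 15, were all lower in HFHS by the mean and all higher with curcumin than in HFHS. Cyp2d10 had values of 12.70, 12.71 and 12.81 in CNT, 12.10, 12.56 and 12.22 in HFHS, 12.67, 12.92 and 12.64 with curcumin and 12.49, 12.75 and 12.71 with calcitriol. Cyp2d22 had values of 11.77, 11.86 and 11.48 in CNT, 11.00, 11.48 and 11.15 in HFHS, 11.58, 11.73 and 11.65 with curcumin and 11.49, 11.41 and 11.02 with calcitriol. For both, all HFHS libraries were below all CNT and all curcumin libraries, although for Cyp2d22 HFHS replicate 2 and CNT replicate 3 were equal to 2 decimals. The change of Cyp2d10 in HFHS was -0.44 (SE 0.13, adjusted p = 0.0451), not called without HFHS replicate 1 or 3 or CNT replicate 1, 2 or 3, adjusted p of 0.0866 to 0.167. That of Cyp2d22 was -0.49 (SE 0.15, adjusted p = 0.0496), not called without HFHS replicate 1 or 3 or CNT replicate 1 or 2, adjusted p of 0.117 to 0.176. Cyp2d9, a male-predominant steroid 16-alpha-hydroxylase, had values of 8.17, 8.38 and 7.83 in CNT, 7.12, 8.19 and 7.88 in HFHS, 8.55, 9.30 and 8.99 with curcumin and 8.08, 8.99 and 8.10 with calcitriol. The 3 curcumin libraries lay above all HFHS and all CNT libraries, and calcitriol overlapped both. Of the 50-base stretches of Cyp2d10 and Cyp2d9, 35.8% and 21.8% also occur in other annotated genes. Reads could be shared, no sum was tested, and the values of both genes are uncertain. Cyp2d26 and Cyp2d40 had -0.33 (SE 0.15, adjusted p = 0.146) and -0.40 (SE 0.23, adjusted p = 0.26) in HFHS.

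Cyp2e1 (chr7:140763739-140774987, plus strand) had values of 17.01, 17.18 and 16.84 in CNT, 16.18, 17.06 and 17.01 in HFHS, 17.24, 17.57 and 17.40 with curcumin and 17.13, 17.28 and 16.99 with calcitriol. HFHS replicate 1 was the lowest library and the 3 curcumin libraries were above all HFHS and CNT libraries, yet no comparison passed, with -0.26 (SE 0.22, adjusted p = 0.431) in HFHS and 0.65 (SE 0.22, adjusted p = 0.116) for curcumin against HFHS. The Cyp2j genes, which act on polyunsaturated fatty acids, and Cyp2u1 had changes in HFHS of -0.39 to -0.14, and 0 of these 4 passed in any comparison by limma, with 2 at an unadjusted p under 0.05 in HFHS against CNT.

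In family 1, Cyp1b1 (chr17:79701537-79715061, minus strand) had values of 4.23, 4.17 and 4.19 in CNT, 5.51, 4.36 and 5.22 in HFHS, 4.32, 4.33 and 4.52 with curcumin and 4.21, 4.19 and 4.34 with calcitriol. HFHS replicates 1 and 3 stood above all other libraries, and HFHS replicate 2 above CNT and calcitriol only. The rise in HFHS was 0.84 (SE 0.22, adjusted p = 0.0333), not called without HFHS replicate 1 or 3 or CNT replicate 1, 2 or 3, adjusted p of 0.061 to 0.119, and with HFHS replicate 2 alone it was 0.16 (SE 0.11, adjusted p = 0.64). Replicates 1 and 3 were also the HFHS libraries with high stellate markers, and that part was not tested. Cyp1a2, the abundant Cyp1 of liver, which metabolises caffeine, had values of 12.90, 12.90 and 12.57 in CNT, 11.79, 13.09 and 12.66 in HFHS, 13.01, 12.98 and 12.78 with curcumin and 12.85, 12.79 and 12.44 with calcitriol. HFHS held both its lowest (replicate 1) and its highest value (replicate 2), and the change was -0.28 (SE 0.26, adjusted p = 0.484). Cyp1a1, the most inducible target of the aryl hydrocarbon receptor, was low, with values of 3.78, 3.63 and 3.68 in CNT, 3.82, 3.92 and 3.96 in HFHS, 3.67, 3.83 and 3.73 with curcumin and 3.58, 3.60 and 3.49 with calcitriol. It was higher in the HFHS than in the CNT libraries without passing (0.20, SE 0.08, adjusted p = 0.104), and its 3 lowest values were those with calcitriol.

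**Figure D4:**
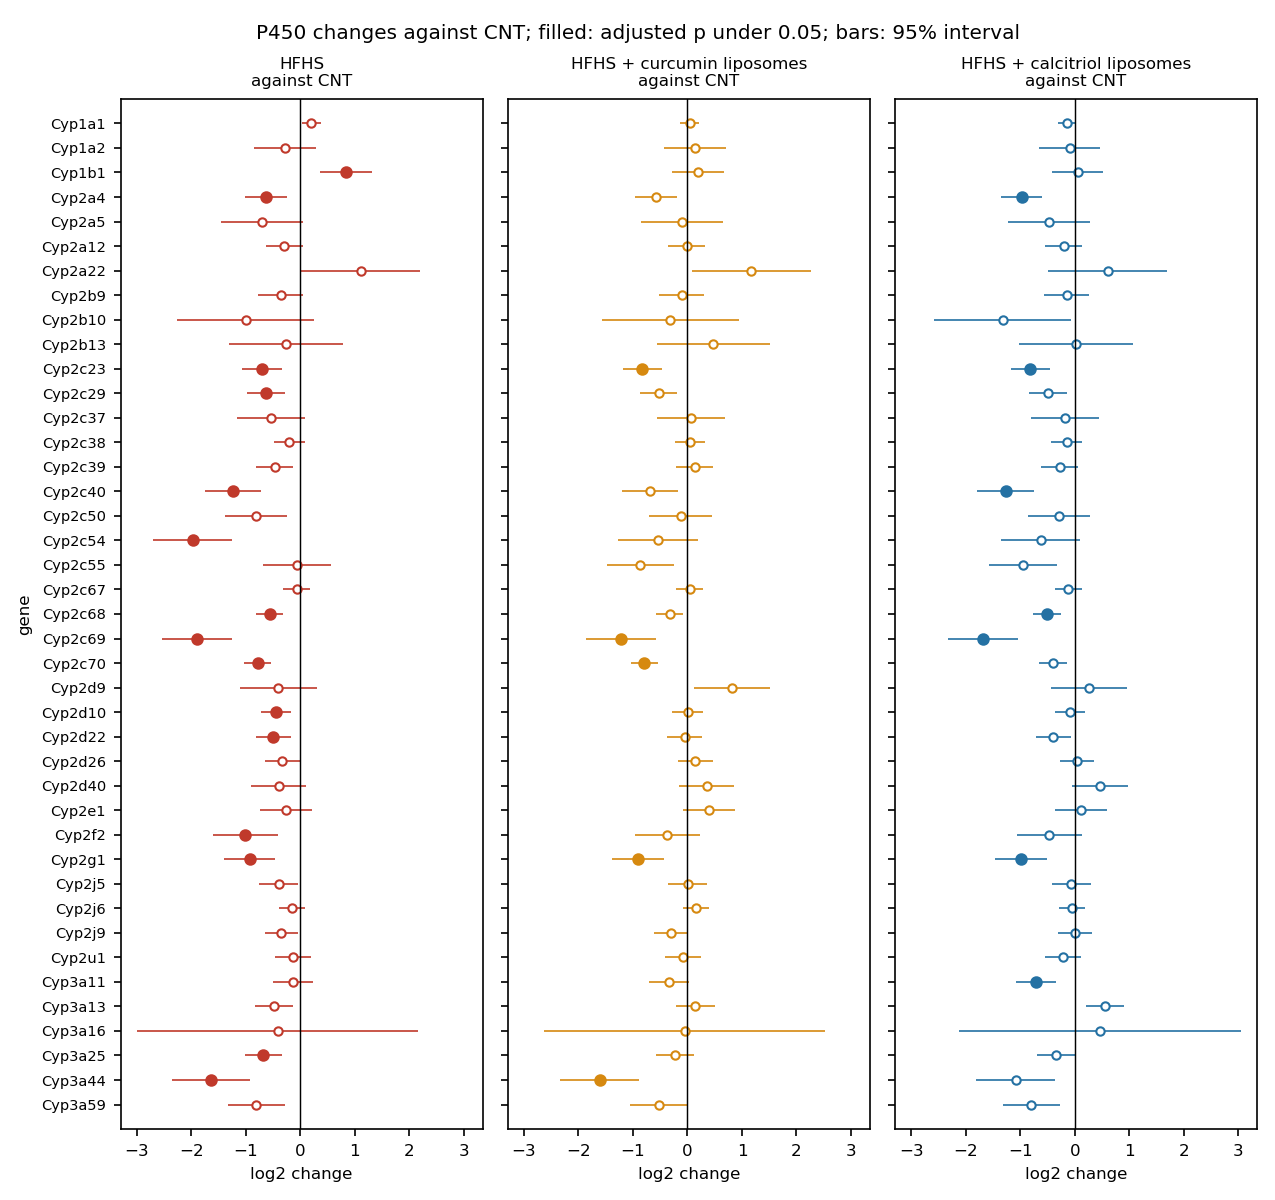
Log2 change of each P450 gene against CNT for HFHS, curcumin and calcitriol, on 1 common x axis. Bars are 95% intervals from limma and filled points have an adjusted p under 0.05. Filled points lie left of 0 in all panels except that of Cyp1b1 in HFHS, and Cyp3a16 has the widest interval.

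Most P450 genes had higher means with curcumin than in HFHS, but 0 of 41 passed in limma, where 0.301% of all genes did. At an unadjusted p under 0.05 there were 18 members, against 24.7% of all genes. The log2 change was above 0 for 35 of 41, with a median of 0.36, against 49.2% of all genes, and all curcumin libraries lay above all HFHS libraries for 10 members (11.9% of all genes) and below for 1, Cyp2c55 (11.6%). The 10 included 4 of 5 Cyp2d genes, Cyp2e1, Cyp3a13 and Cyp2c54. The largest changes were in Cyp2c54 (1.43, SE 0.33, adjusted p = 0.071) and Cyp2d9 (1.22, SE 0.32, adjusted p = 0.0782). With the replicate number as a block in limma both passed, with adjusted p = 0.0048 and adjusted p = 0.0316. That block rests on correlations seen in these same data and on no stated pairing, so it adds no separate support. Cyp2c70 had -0.01 (SE 0.12, adjusted p = 0.985) and a 95% interval of -0.26 to 0.25. The count depended on the libraries kept. Without HFHS replicate 2, 22 members passed, 20 higher and 2 lower, with 25.4% of all genes. None did without HFHS replicate 1 or 3 or any 1 curcumin library, in fits that called 0% to 0.0158% of all genes. With HFHS replicates 1 and 3 both left out the median change was 0.06.

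With calcitriol 1 member rose and 1 fell against HFHS, where 2.21% of all genes passed, 0.973% higher and 1.23% lower. At an unadjusted p under 0.05 there were 11 members, against 21.3% of all genes, and libraries did not overlap for 4 members higher (12.6% of all genes) and 4 lower (11.8%). Cyp3a13 (chr5:137892932-137921619, minus strand), a Cyp3a form that shared no 50-base stretch with another gene, had values of 11.91, 12.14 and 12.47 in CNT, 11.58, 11.94 and 11.58 in HFHS, 12.53, 12.27 and 12.16 with curcumin and 12.56, 12.70 and 12.93 with calcitriol. The calcitriol libraries were the 3 highest of 12 and did not overlap HFHS. The rise was 1.03 (SE 0.16, adjusted p = 0.0181), 2.05-fold, not called without HFHS replicate 1 or calcitriol replicate 2 or 3, adjusted p of 0.0519 to 0.0944. Cyp1a1 fell by 0.34 (log2, SE 0.08, adjusted p = 0.0472), a call that held in 4 of 14 alternatives. It was not called without HFHS replicate 1 or 3 or calcitriol replicate 1, 2 or 3, adjusted p of 0.0889 to 0.171. Quantile normalization, the replicate block and a fit restricted to HFHS and calcitriol libraries each lost the call of Cyp1a1 too. So did centring libraries on their medians, where 1 member rose and 0 fell. Of the 41 changes 29 were above 0 (49.5% of all genes), with a median of 0.19, and with HFHS replicates 1 and 3 left out the median turned to -0.14, with 11 of 41 above 0 and 0 called. Without HFHS replicate 2 alone 15 members passed, 11 higher and 4 lower, with 17.4% of all genes. None did without HFHS replicate 1, calcitriol replicate 2 or calcitriol replicate 3, in fits that called 0.19%, 0.0317% and 0.111% of all genes. Cyp2c54 had 1.35 (SE 0.33, adjusted p = 0.0617), Cyp2d40 0.86 (SE 0.23, adjusted p = 0.0772), Cyp2c70 0.38 (SE 0.12, adjusted p = 0.0949) and Cyp3a11 -0.58 (SE 0.17, adjusted p = 0.0848). Of 6 erythroid markers 1, Alas2, rose against HFHS, with summed levels of 13.44 to 13.74 with calcitriol, 13.39 to 13.52 with curcumin, 12.15 to 13.04 in HFHS and 12.01 to 13.11 in CNT, none at 0. Of 8 endothelial markers 1, Clec4g, rose, with summed levels of 12.56 to 12.67 with calcitriol and 12.06 to 12.54 in HFHS, which did not overlap. Of 10 stellate markers 1, Des, fell and 10 had changes below 0, with a median of -0.56 and summed levels of 12.74 to 12.84 with calcitriol against 12.74 to 13.8 in HFHS, and no gene of either list was at 0. The part of these lists was not tested. The curcumin and calcitriol comparisons share the HFHS libraries. Set side by side, the change of Cyp3a13 was 0.62 (SE 0.16, adjusted p = 0.0724) with curcumin and that of Cyp3a11 -0.21 (SE 0.17, adjusted p = 0.443).

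Between curcumin and calcitriol no member passed in limma, nor did any gene (0% of 12637), with 9 members at an unadjusted p under 0.05 against 14.8% of all genes. With only these 2 groups in the fit 1.69% of all genes were called, and 0 members. The difference was above 0 for 33 of 41 members and 50.9% of all genes, and libraries did not overlap for 6 members higher (14.9% of all genes) and 2 lower (13.8%). Among the members with the smallest p, curcumin minus calcitriol was -0.39 (SE 0.12, adjusted p = 0.227) for Cyp2c70 and -0.41 (SE 0.16, adjusted p = 0.288) for Cyp3a13, and 0.40 (SE 0.17, adjusted p = 0.322) for Cyp2a4. The 95% intervals of these differences were -0.64 to -0.14, -0.76 to -0.06 and 0.02 to 0.78, so sizes up to these bounds remain possible. The doses were not given in the sources used here.

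Against CNT, 5 members fell with curcumin (1.91% of all genes fell, 1.6% rose) and 7 with calcitriol (2.27% fell, 1.77% rose), and none rose. Either direction together, 3.51% and 4.04% of all genes passed. At an unadjusted p under 0.05 there were 12 members with curcumin (18.6% of all genes) and 16 with calcitriol (23.4%). All libraries lay below CNT for 16 members with curcumin (12.7% of all genes) and 15 with calcitriol (17.4%), and above it for 5 (12.9%) and 1 (14.9%). Changes were below 0 for 24 of 41 members with curcumin (50.5% of all genes) and 31 with calcitriol (50.8%). After quantile normalization 5 fell and 1, Cyp3a13, rose with calcitriol, and Cyp2c23 and Cyp3a11 were no longer called. With curcumin the 5 were Cyp2c69 (-1.23, SE 0.29, adjusted p = 0.0452), Cyp2c23 (-0.83, SE 0.17, adjusted p = 0.0208), Cyp2c70 as given above, Cyp2g1 (-0.91, SE 0.22, adjusted p = 0.043) and Cyp3a44 (-1.61, SE 0.32, adjusted p = 0.0272). Of these Cyp2c70 was called without any 1 of the 6 libraries. Cyp2c69, Cyp2c23 and Cyp2g1 were not called without any 1 of the 3 curcumin libraries or without CNT replicate 1 or 2, with adjusted p of 0.0648 to 0.161. Cyp3a44 was not called without curcumin replicate 2 or 3 or CNT replicate 1 or 2, adjusted p of 0.0558 to 0.106.

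With calcitriol the largest fall was in Cyp2c69 (-1.69, SE 0.29, adjusted p = 0.0159), followed by Cyp2c40 (-1.27, SE 0.24, adjusted p = 0.0194), Cyp2g1 (-0.98, SE 0.22, adjusted p = 0.0342) and Cyp2a4 (-0.98, SE 0.17, adjusted p = 0.0157). Cyp2c23 (-0.82, SE 0.17, adjusted p = 0.0233) and Cyp2c68 (-0.51, SE 0.12, adjusted p = 0.0358) fell as well. Cyp3a11 fell too (-0.71, SE 0.17, adjusted p = 0.0391), to 14.12 to 14.54 against 14.89 to 15.04 in CNT. In the same fit it passed in none of the other 5 comparisons. For calcitriol against HFHS it fell in 4 of 15 alternatives, quantile normalization among them. None of the 7 was called without calcitriol replicate 3 or without CNT replicate 2, and 4, 3, 2 and 6 members fell without calcitriol replicates 1 and 2 and CNT replicates 1 and 3, in fits that called 1.35%, 0.609%, 1.79% and 4.82% of all genes. With the replicate number as a block, 10 members passed for calcitriol against CNT, with 4.96% of all genes, Cyp2c29, Cyp2c54 and Cyp2c55 being added (adjusted p = 0.0446, adjusted p = 0.0329 and adjusted p = 0.0361). Here too no pairing is stated in the labels, and the block adds no separate support. Of the 13 Cyp2c genes 9 were below CNT by the mean with curcumin and 13 with calcitriol, while 4 of 5 and 3 of 5 Cyp2d genes were above it. In the calcitriol comparison 3 of 10 macrophage markers rose (Clec4f, Vsig4 and Csf1r), with summed levels of 13.18 to 13.49 against 12.48 to 12.8 in CNT, and none was at 0. Their part was not tested.

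Of 6 electron donor genes, which had a median log2 change of -0.24 in HFHS, 1 fell: Cyb5r3, the reductase of cytochrome b5 (-0.45, SE 0.12, adjusted p = 0.033). Por had 13.10, 13.72 and 13.26 in HFHS, 14.14, 14.28 and 14.11 with curcumin, 13.99, 14.15 and 13.76 with calcitriol and 13.94, 13.90 and 13.57 in CNT. Both treated groups lay above all HFHS libraries, and the curcumin libraries were above CNT too, but the change with curcumin against HFHS did not pass (0.82, SE 0.17, adjusted p = 0.051). None of 12 genes of heme synthesis and breakdown was called in any comparison by limma, with 2 to 4 at an unadjusted p under 0.05. Among them was Alas1, the rate-limiting step of heme synthesis in liver, with 0.44 in HFHS (SE 0.27, adjusted p = 0.287).

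Among 24 regulators of P450 genes 6 fell in HFHS and 1, Ahr, rose, with a median log2 change of -0.26 against -0.01 for all genes. Cux2, a female-predominant liver repressor, had 8.80, 8.72 and 8.76 in HFHS and 9.58, 9.62 and 9.68 in CNT, without overlap, and fell by 0.87 (SE 0.15, adjusted p = 0.0109). The bile acid receptor gene Nr1h4 fell by 0.41 (SE 0.09, adjusted p = 0.0186) and the clock-controlled activator Dbp by 0.53 (SE 0.12, adjusted p = 0.0211), and Cebpa, Foxa3 and Tef fell as well. Ahr rose by 0.28 (SE 0.08, adjusted p = 0.0426). Nr1i2 (-0.12, adjusted p = 0.569), Nr1i3 (-0.34, adjusted p = 0.372) and Hnf4a (-0.37, adjusted p = 0.054) did not pass. With calcitriol against HFHS, Arnt (0.40, SE 0.09, adjusted p = 0.0447) and Stat5b (0.36, SE 0.08, adjusted p = 0.038) rose, and with curcumin against HFHS none of the 24 was called by limma, with 15 at an unadjusted p under 0.05.

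Promoter windows of 300 bases, from 250 before to 50 after the RefSeq start, were found for 36 of the 41 genes (38 windows, GRCm38.p6), and Cyp2c23, Cyp2c54, Cyp2d22, Cyp2g1 and Cyp2u1 were not matched. The letters CAAAGTCCA, searched on both strands, occurred in 7 of 38 windows, 18.4%, against 0.475% of all 32851 windows of that length. The 7 belong to Cyp2c40, Cyp2c67, Cyp2c68, Cyp2c69, Cyp2c70, Cyp3a11 and Cyp3a16, of which the first 4 share most of their upstream sequence, as printed above. TATAAA occurred in 60.5% of the P450 windows and 13.6% of all, AGGTCA, a nuclear receptor half-site, in 39.5% and 16.3%, and GCGTG, the core of the aryl hydrocarbon receptor element, in 13.2% and 32.4%. The STAT letters TTCNNNGAA occurred in 0 of the 38 windows and in 8.3% of all. The windows are not all separate. Both windows of Cyp3a25, which nearly coincide, hold AGGTCA and are counted, as are those of the related Cyp2a4 and Cyp2a5. These are matches of letters in a short window and not binding sites.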

How the data were processed

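Mouse liver RNA was measured by RNA sequencing in 12 libraries, 3 in each of 4 groups taken from the sample titles. The deposited values are log2 levels per gene made by the authors. The submitters' processing notes list STAR 2.4.0d, DESeq2 1.8.1 and GRCm38 but give no roles, and the transformation is not given in the sources used here. Of 45792 genes, 23411 were at 0 in all libraries, and the 12637 with a value of at least log2 of 10 in 3 or more libraries were tested. limma 3.58.1 in R 4.3.3 was fitted on the 4 group means with trended, robust variances and Benjamini-Hochberg adjustment over all tested genes, and was checked on simulated data. Symbols and exon lengths came from GENCODE M21. Near-identical members were also summed, an alternative chosen after seeing the data. The members and gene lists were chosen with earlier results of these data known.

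Values by library are given for members past the threshold in a comparison (up to 3 per subfamily and comparison, smallest p first) and for Cyp1a2, Cyp2e1, Cyp3a11, Cyp2b10, Cyp2a5, Cyp2c29, Cyp2d9 and Cyp2f2. Same-numbered libraries deviated together, by correlations across genes, for curcumin against HFHS (0.16, 0.321 and 0.162) and calcitriol against CNT (0.205, 0.253 and 0.372). For HFHS against CNT the correlations were also above 0 (0.069, 0.185 and 0.00346). For curcumin against CNT all were below 0 (-0.0835, -0.0225 and -0.383). The labels state no pairing, and none is established by these values. Fits with the number as a block take 1 effect per number for all 4 groups. They are given beside the results for curcumin against HFHS and calcitriol against CNT because of that pattern, as alternatives only. Alternatives covered filters, variance options, normalization, the groups fitted, library weights, the block and each library left out.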

Additional observations from a re-analysis of the deposited data

How the results depend on the processing

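Counts of P450 members called are out of 41, each followed by the share of all genes called in the same fit. With a mean of at least 4 as filter they are out of 40, since Cyp1a1, with a mean of 3.72, was not tested. For HFHS against CNT, 15 in all (11.9%), the count was 0 with only the 2 groups in the fit (0.103%), 27 with array weights, library weights estimated from the data (37.9%), 1 with HFHS replicates 1 and 3 left out together (0.538%), and 2 to 24 with each library left out in turn (1.07% to 29.4%). For curcumin against HFHS, 0 in all (0.301%), it was 18 with array weights (27.1%), 2 with the replicate block (1.92%) and 0 to 22 with a library left out (0% to 25.4%). For calcitriol against HFHS, 2 in all (2.21%), it was 1 with a mean of at least 4 as filter (2.17%), 1 after centring on the library median (2.19%), 0 with only the 2 groups (0%), 15 with array weights (21.6%), 3 with the replicate block (2.22%), 0 with HFHS replicates 1 and 3 left out (0.0317%) and 0 to 15 with a library left out (0.0317% to 17.4%). For curcumin against calcitriol, 0 in all (0%), array weights gave 1 (4.57%) and only the 2 groups in the fit gave 0 (1.69%). For curcumin against CNT, 5 in all (3.51%), it was 2 without a filter (1.35%), 9 with only the 2 groups (5.1%), 10 with array weights (21%, near the members' 24.4%), 7 with the replicate block (3.29%) and 1 to 6 with a library left out (0.744% to 7.51%). For calcitriol against CNT, 7 in all (4.04%), it was 18 with array weights (24.7%) and 0 to 7 with a library left out (0.578% to 4.82%). Apart from Cyp1a1 leaving the test under the filter on the mean, the cause of these shifts was not tested. No value turned its direction while called. The replicate block gave 18 calls for HFHS against CNT (14.7%), and 0 for curcumin against calcitriol (0%). For HFHS against CNT, quantile normalization gave 10 (8.85%), and Cyp2a4, Cyp2c23, Cyp2c29, Cyp2d10, Cyp2d22 and Cyp2f2 were no longer called. With no filter on low values there were 11 (5.18%), and Cyp1b1, Cyp2d10, Cyp2d22 and Cyp2f2 were no longer called. In every comparison the labels give the libraries no more than a shared number. Depth is unknown, so no floor could be set for weakly expressed members such as Cyp1a1 and Cyp1b1.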

Other observations

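Other enzyme families that act on foreign compounds were also measured. Of 13 carboxylesterase and epoxide hydrolase genes tested, 3 fell in HFHS against CNT and none rose, with a median log2 change of -0.25, against 5.36% of all genes that fell and a median of -0.01. Ces2a, an intracellular carboxylesterase, had 11.98, 11.96 and 11.48 in CNT and 10.20, 10.60 and 10.14 in HFHS, and fell by 1.49 (log2, SE 0.21, adjusted p = 0.00712). Ces3b had 11.45, 11.51 and 11.61 in CNT and 9.29, 10.55 and 9.23 in HFHS, and fell by 1.83 (SE 0.38, adjusted p = 0.0196). HFHS and CNT libraries did not overlap for either gene, and Ces1b fell too. Of 13 UDP-glucuronosyltransferase genes, which conjugate oxidised compounds, 1 fell, Ugt2b5, a share near that of all genes, and the median change was -0.28. None of 5 flavin monooxygenase genes was called in any of the 6 comparisons by limma, with 0 to 2 at an unadjusted p under 0.05. Among 3 targets of the aryl hydrocarbon receptor outside the P450 genes, Nqo1 fell with calcitriol against HFHS (-0.63, adjusted p = 0.0372), and 0 were called, or had an unadjusted p under 0.05, in HFHS against CNT by limma.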
